A study of Mus musculus with 13 samples.

Results

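The genes described here are 10 genes of the Notch pathway, taken by name with earlier results of these data known: the receptor Notch1, the ligands Jag1, Jag2 and Dll1, the contactin Cntn1, the glycosyltransferase Mfng, and the target genes Hes1, Hes5, Hey1 and Hey2. All 10 were among the 13549 genes of the deposited count table, and all 10 passed the filter on low counts. They were followed in mouse oligodendrocyte precursors (OPCs) kept in culture and in the immature oligodendrocytes (iOLs) derived from these, with and without Eed, a core subunit of the histone methyltransferase complex PRC2.

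In Notch signalling, a ligand on the surface of a cell binds a Notch receptor on its neighbour, and the receptor is then cut, first by an ADAM protease and then by gamma-secretase. The freed intracellular domain enters the nucleus, joins the DNA-binding protein RBPJ and a Mastermind coactivator, and switches on Hes and Hey genes, which encode basic helix-loop-helix repressors. In the oligodendrocyte lineage, signalling from Jagged ligands through Notch1 is known for holding precursors back from differentiation.

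The 9 RNA libraries came from C57BL/6 mouse brain and formed 4 groups: control OPCs (n = 2), Eed conditional knockout (cKO) OPCs (n = 3), control iOLs (n = 2) and Eed cKO iOLs (n = 2). OPCs were grown in DMEM-Sato medium with PDGF and NT-3, and iOLs were taken on day 2 after PDGF was withdrawn and thyroid hormone (T3) was added. The cells came from pups at postnatal day 7 (control OPC replicate 1 and cKO OPC replicates 1 and 2) or day 6 (the other 6 libraries, all iOLs included). The groups follow the sample titles, because the genotype entry reads EED cKO for control libraries too. The Cre driver, the deleted exons and the controls' alleles are not given in the sources used here, and the replicates are not tied to particular animals or cultures. The spread that each p-value rests on is therefore that between these libraries, which may be technical. RNA was prepared with a stranded poly(A) kit or, for small amounts, a SMARTer kit, and which library had which is not stated. The series also holds 4 chromatin samples, which were not analysed here.

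Library totals ran from 17417529 to 19680398 counts. Levels below are TMM-scaled CPM, which are counts relative to the library total, and they are compared between libraries only, since no transcript lengths were used here to compare one gene with another. Gene positions are those of RefSeq on GRCm38.p6. Eed itself stood at 21.7 and 16.8 CPM in control OPCs and at 13.3, 11.8 and 12.5 CPM in cKO OPCs, a log2 difference of −0.62 ± 0.17 (SE, adjusted p = 0.0847). In iOLs it stood at 18 and 21.2 CPM in controls and at 14.6 and 12.1 CPM in cKO libraries (log2 −0.55 ± 0.18, adjusted p = 0.0973), so that the groups did not overlap in either stage although neither difference passed the test. The summed level of the 7 OPC markers was 14290 to 18348 CPM in OPC libraries and 4973 to 8426 CPM in iOL libraries. From OPCs to iOLs, 4 of the 7 were called lower in controls and 6 in cKO cells, where 25.3% and 21.8% of all genes were. Pdgfra, the PDGF receptor of OPCs, lay between 3297 and 4430 CPM in OPC libraries and between 497 and 821 CPM in iOL libraries. Gpr17 stood at 2922 and 3316 CPM in control OPCs and at 3820 and 3508 CPM in control iOLs. In cKO cells it stood lower, at 1866, 1625 and 1866 CPM in OPCs and at 869 and 1201 CPM in iOLs. Sox10 stood at 792 and 657 CPM in control OPCs and at 1010 and 924 CPM in control iOLs. In cKO cells it stood at 724, 666 and 600 CPM in OPCs and at 639 and 742 CPM in iOLs. The myelin markers did not separate the stages: the summed level of the 9 measured oligodendrocyte markers of 10 listed was 6578 CPM in control OPC replicate 1 and 2216 CPM in replicate 2, beside 5692 and 5741 CPM in control iOLs and 1472 and 2154 CPM in cKO iOLs. Control OPC replicate 1 also held 5380 CPM of Lars2, against 142 to 381 CPM in the other 8 libraries. The haemoglobin gene Hbb-b1 stood at 562 to 2877 CPM in OPC libraries and at 0.213 to 1.17 CPM in iOL libraries. The part of other cells in the stage changes below was not tested. In cKO against control iOLs, 2 of the 7 OPC markers were called lower and 1 higher, and 4 of the 9 oligodendrocyte markers lower and 0 higher. Of all genes, 3.51% were lower and 7.08% higher there. The part of these marker differences in the genotype differences below was not tested. Of the microglial markers only P2ry12 of 10 was in the table, and of the endothelial markers only Kdr, Flt1 and Vwf of 10. In such bulk samples, fewer cells of a type and less RNA per cell cannot be told apart.

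**Figure D1:**
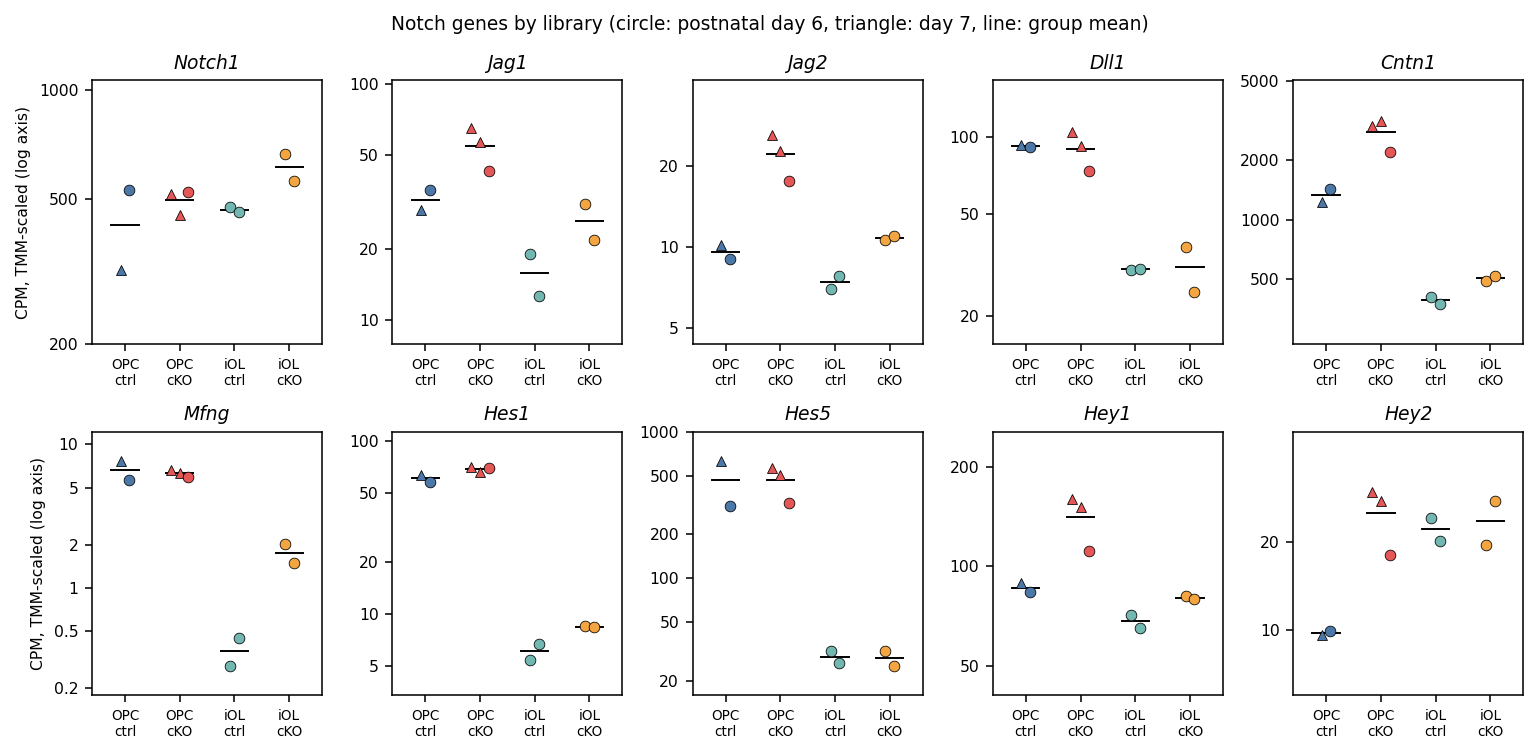
Level of each of the 10 Notch genes in the 9 libraries (TMM-scaled CPM, log axis), by group; each symbol is 1 library (circle, postnatal day 6; triangle, day 7) and each line the group mean. Each gene has its own axis. Hes1 and Hes5 sit lower in all 4 iOL libraries than in all 5 OPC libraries, whereas Notch1 lies between 319 and 666 CPM throughout.

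From control OPCs to control iOLs, Hes1, Hes5, Mfng, Dll1, Cntn1 and Jag1 fell and Hey2 rose, so the 4 Hes and Hey genes did not all move the same way. In Eed cKO cells the same 6 genes fell, together with Jag2 and Hey1, and Hey2 did not pass the test. The test of the difference between these stage changes passed for Mfng alone. A gene was called at an adjusted p under 0.05 in edgeR's quasi-likelihood test with Benjamini-Hochberg adjustment over all 13549 genes. Of the 10 Notch genes, 6 were called lower and 1 higher in controls, in a comparison where 25.3% of all genes were called lower and 21.0% higher. In cKO cells 8 were called lower and 0 higher, beside 21.8% and 18.5% of all genes. An unadjusted p under 0.05 in edgeR, which 6627 of all genes passed in either direction, also gave 0 higher. DESeq2 gave 0 higher too, where it called 19.1% of all genes higher. The median log2 difference of the 10 genes was −1.32 in controls and −1.30 in cKO cells, beside −0.06 and −0.00 over all genes. Because the 10 were chosen with earlier results of these data known, the counts and medians given here describe them and are no test of the pathway. Between the genotypes, Jag2, Cntn1, Hey1 and Hey2 were called higher in cKO than in control OPCs, and Mfng in cKO than in control iOLs. In OPCs, 4 of the 10 were called higher and 0 lower, where 2.94% of all genes were called higher and 0.303% lower. Without control OPC replicate 2, those shares were 13.7% and 15.3%, and 5 of the 10 were called higher and 0 lower. In iOLs, 1 was called higher and 0 lower, where 7.08% and 3.51% of all genes were called. At an unadjusted p under 0.05 in edgeR, 5 were higher in OPCs and 4 in iOLs and 0 were lower in either. Of all 13549 genes, 3477 in OPCs and 3142 in iOLs passed that threshold, counting either direction. DESeq2 also called 0 of the 10 lower, where it called 1.76% of all genes lower in OPCs and 4.72% in iOLs.

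Hes5 and Hey2 moved in opposite directions between the stages of control cells, and they were the only members among the 7 with a RefSeq promoter entry whose window held the letters of the RBPJ core, TGGGAA; their promoters are shown for that reason. Each is 300 bases on GRCm38.p6, from 250 before to 50 after a transcript start that RefSeq's window is built on, read along the gene's strand, with TGGGAA, or TTCCCA where it lies on the other strand, in capitals. The Hes5 window is chr4:154960673-154960972 on the plus strand, around a transcript start at position 154960923, which is 297 bases inside the annotated span of the gene. The Hey2 window is chr10:30842734-30843033 on the minus strand, around a transcript start at position 30842783, the edge of the annotated gene.
Hes5: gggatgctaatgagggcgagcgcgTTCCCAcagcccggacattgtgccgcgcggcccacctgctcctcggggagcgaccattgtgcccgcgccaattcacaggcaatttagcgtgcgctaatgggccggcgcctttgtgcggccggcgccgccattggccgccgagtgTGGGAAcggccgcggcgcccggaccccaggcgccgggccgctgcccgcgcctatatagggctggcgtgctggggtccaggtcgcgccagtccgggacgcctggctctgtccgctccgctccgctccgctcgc
Hey2: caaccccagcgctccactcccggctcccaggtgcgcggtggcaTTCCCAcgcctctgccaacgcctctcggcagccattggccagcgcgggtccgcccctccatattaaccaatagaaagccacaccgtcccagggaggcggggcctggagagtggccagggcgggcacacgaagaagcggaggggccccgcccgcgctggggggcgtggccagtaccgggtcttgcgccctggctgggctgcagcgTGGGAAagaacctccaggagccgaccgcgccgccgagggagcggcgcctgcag
Both promoters held 2 matches, at 226 and 82 bases before that transcript start in Hes5 and at 207 and 3 bases before it in Hey2, in both genes with the farther match on the opposite strand. At least 1 match was present in 25.56% of 32841 mouse promoters of the same length, and 2 or more in 3.782%. Hes1, Hey1 and Mfng had no entry. The class C E-box CACGNG, a motif bound by Hes and Hey proteins, had matches in the windows of Jag1, Jag2 and Dll1 and was present in 27.48% of all promoters. The N-box CACNAG had matches in those of Notch1, Dll1 and Cntn1 and was present in 42.49% of all. Both strands were searched, CACGNG and CACNAG can overlap at CACGAG, and the motifs were chosen after the counts had been seen.

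Among the target genes, Hes5 (chromosome 4, 154960626 to 154962372), the Hes repressor best known as a Notch target in neural progenitors, stood at 632 and 315 CPM in the control OPC libraries and at 568, 508 and 331 CPM in the cKO OPC libraries. Its level in iOLs was 32.0 and 26.3 CPM in controls and 32.1 and 25.3 CPM in cKO libraries. Every iOL library lay far below every OPC library, and the genotypes overlapped in both stages. Hes5 fell 16.2-fold in controls (log2 −4.02 ± 0.38, SE, adjusted p = 4.61e-05) and 16.3-fold in cKO cells (log2 −4.03 ± 0.37, adjusted p = 3.96e-05). Between the genotypes Hes5 differed by −0.01 ± 0.30 in OPCs (adjusted p = 0.982; 0.013 with DESeq2's size factors) and by −0.02 ± 0.34 in iOLs (adjusted p = 0.983). The fall differed between the genotypes by −0.01 ± 0.46 on the log2 scale (adjusted p = 0.992). Within OPCs the level followed the pups' age: the 3 day 7 libraries were the highest and the 2 day 6 libraries the lowest. The summed level of the 9 measured astrocyte markers of 10 listed went the other way, at 3171 to 3600 CPM in the day 7 OPC libraries and at 10106 and 8053 CPM in the day 6 ones, and its part in the Hes5 level was not tested. With day 6 libraries alone, the log2 fall of Hes5 was −3.42 in controls (adjusted p = 3.94e-05) and −3.52 in cKO cells.

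Hes1 (chromosome 16, 30065357 to 30067796), which encodes a repressor of proneural genes, stood at 63.4 and 57.5 CPM in control OPCs and at 70.3, 66.2 and 69.2 CPM in cKO OPCs. The iOL libraries held 5.45 and 6.77 CPM in controls and 8.51 and 8.41 CPM in cKO libraries. The stages were far apart, and the cKO libraries lay above the controls in both stages without overlap. Hes1 fell 9.88-fold in controls (log2 −3.30 ± 0.15, adjusted p = 2.86e-06) and 8.10-fold in cKO cells (log2 −3.02 ± 0.14, adjusted p = 2.69e-06). Neither difference between genotypes passed the test, with log2 0.18 ± 0.12 in OPCs (adjusted p = 0.356) and 0.47 ± 0.15 in iOLs (adjusted p = 0.0823).

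Hey2 (chromosome 10, 30832359 to 30842783), which encodes a repressor of the Hey branch, stood at 9.61 and 9.95 CPM in control OPCs and at 29.7, 27.6 and 18.1 CPM in cKO OPCs. In iOLs it stood at 24.2 and 20.1 CPM in controls and at 19.5 and 27.7 CPM in cKO libraries. The control OPCs were the low group, below all 7 other libraries, and the other 3 groups overlapped. Hey2 was 2.57-fold higher in cKO than in control OPCs (log2 1.36 ± 0.25, adjusted p = 0.0183) and rose 2.26-fold from control OPCs to control iOLs (log2 1.18 ± 0.26, adjusted p = 0.00542). In cKO cells the stage difference was −0.09 ± 0.23 (adjusted p = 0.774) and in iOLs the genotype difference 0.09 ± 0.25 (adjusted p = 0.892). The change between the stages differed between the genotypes by −1.27 ± 0.35 on the log2 scale, which did not pass the test (adjusted p = 0.1). That difference did not pass in 12 of 16 alternatives either, and it was −0.77 with day 6 libraries alone. It passed in the other 4, namely with DESeq2 (−1.29, adjusted p = 0.018) and with postnatal day as a term (−1.17, adjusted p = 0.0382). The others were the replicate block (−1.47, adjusted p = 0.0338) and the fit without cKO OPC replicate 3 (−1.46, adjusted p = 0.0224). The call in OPCs was lost without control OPC replicate 1 (adjusted p = 0.114), without cKO OPC replicate 1 (0.073) or 2 (0.072), and with day 6 libraries alone (0.376).

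Hey1 (chromosome 3, 8663359 to 8667038), a relative of Hey2, stood at 88.9 and 83.4 CPM in control OPCs and at 160, 151 and 111 CPM in cKO OPCs. Its level in iOLs was 71.1 and 65.1 CPM in controls and 81.0 and 79.5 CPM in cKO libraries. The 3 cKO OPC libraries were above all others. Hey1 was 1.63-fold higher in cKO OPCs (log2 0.71 ± 0.15, adjusted p = 0.0391) and fell 1.75-fold from OPCs to iOLs in cKO cells (log2 −0.81 ± 0.15, adjusted p = 0.00265). In controls its stage difference was −0.34 ± 0.16 (adjusted p = 0.12), which passed in 3 of 17 alternatives, among them that without cKO OPC replicate 3 (0.0209). The difference between these changes, −0.47 ± 0.22, did not pass the test (adjusted p = 0.301). The call in OPCs was lost without control OPC replicate 1 (adjusted p = 0.12), cKO OPC replicate 1 (0.151) or 2 (0.144), or any 1 of the iOL libraries (0.0723 to 0.0816), and with day 6 libraries alone (0.186).

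**Figure D2:**
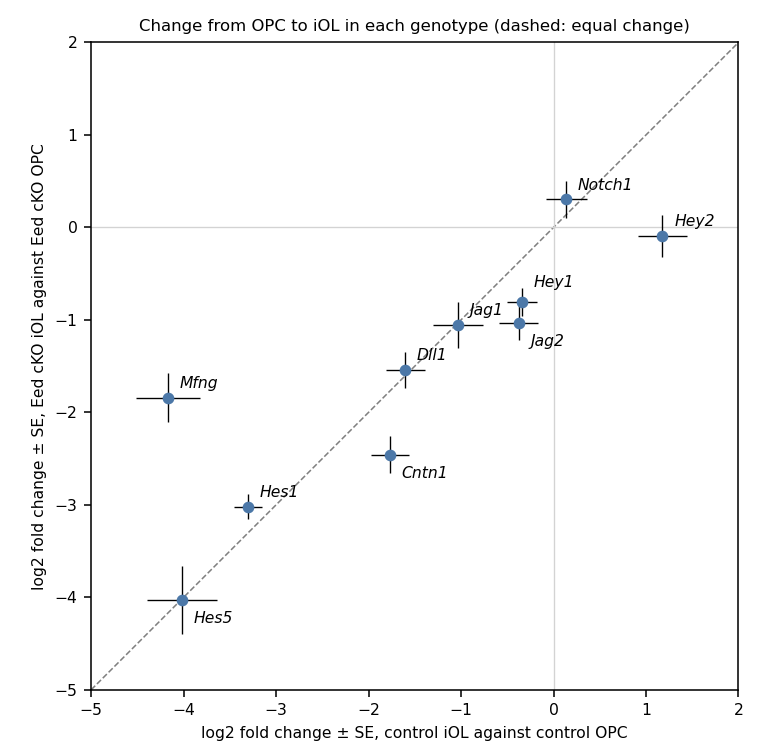
Log2 fold change from OPC to iOL of the 10 Notch genes in control cells (horizontal axis) and in Eed cKO cells (vertical axis); points are edgeR estimates, lines are standard errors, and the dashed diagonal marks equal change. Hes5 lies on the diagonal (−4.02 and −4.03), Mfng above it (−4.17 and −1.84) and Hey2 below it (1.18 and −0.09).

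Of the ligands, Jag2 (chromosome 12, 112907803 to 112929812), a Jagged ligand, was called higher in cKO OPCs. It stood at 10.2 and 9.05 CPM in control OPCs and at 26.1, 22.7 and 17.6 CPM in cKO OPCs. The iOL libraries held 6.99 and 7.83 CPM in controls and 10.6 and 11 CPM in cKO libraries. Again the 3 cKO OPC libraries were the highest of all 9. Jag2 was 2.30-fold higher in cKO OPCs (log2 1.20 ± 0.19, adjusted p = 0.0109), a call kept when any 1 library was left out but not with day 6 libraries alone (adjusted p = 0.137). In iOLs the groups did not overlap either, but the difference of 0.55 ± 0.21 did not pass (adjusted p = 0.147). Jag2 fell 2.05-fold from OPCs to iOLs in cKO cells (log2 −1.03 ± 0.19, adjusted p = 0.00223), beside −0.38 ± 0.21 in controls (adjusted p = 0.171). The difference between these changes, −0.66 ± 0.28, did not pass the test (adjusted p = 0.256).

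Jag1 (chromosome 2, 137081451 to 137116520), the Jagged ligand best known from the oligodendrocyte lineage, stood at 29.2 and 35.5 CPM in control OPCs and at 65.0, 56.7 and 42.8 CPM in cKO OPCs. In iOLs it stood at 19.0 and 12.6 CPM in controls and at 31.0 and 21.7 CPM in cKO libraries. The cKO libraries were the higher ones in both stages, without overlap. The genotype difference was of similar size in both, log2 0.76 ± 0.24 in OPCs (adjusted p = 0.119) and 0.74 ± 0.27 in iOLs (adjusted p = 0.125), and passed in neither. In OPCs it passed in 3 of 17 alternatives, among them DESeq2 (adjusted p = 0.0376) and the fit without cKO OPC replicate 3 (0.0383). Jag1 fell 2.05-fold in controls (log2 −1.04 ± 0.27, adjusted p = 0.0116) and 2.08-fold in cKO cells (log2 −1.06 ± 0.25, adjusted p = 0.00784). The call in controls was lost without control iOL replicate 2 (adjusted p = 0.0939), and that in cKO cells without cKO iOL replicate 2 (0.0879) or with day 6 libraries alone (0.0679).

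Dll1 (chromosome 17, 15367354 to 15376932), the Delta ligand, stood at 93.3 and 91.7 CPM in control OPCs and at 105, 92.4 and 73.9 CPM in cKO OPCs. Its level in iOLs was 30.3 and 30.5 CPM in controls and 37.3 and 24.7 CPM in cKO libraries. The genotypes overlapped in both stages, and the stages did not overlap. Dll1 fell 3.04-fold in controls (log2 −1.61 ± 0.21, adjusted p = 0.000304) and 2.91-fold in cKO cells (log2 −1.54 ± 0.20, adjusted p = 0.000303). Its genotype differences were −0.03 ± 0.19 in OPCs (adjusted p = 0.924) and 0.03 ± 0.21 in iOLs (adjusted p = 0.963).

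Cntn1 (chromosome 15, 92051152 to 92341967), a membrane-anchored adhesion molecule that has been reported to bind Notch on oligodendroglial cells, stood at 1231 and 1432 CPM in control OPCs and at 2957, 3158 and 2205 CPM in cKO OPCs. The iOL libraries held 405 and 377 CPM in controls and 491 and 517 CPM in cKO libraries. The 4 groups followed each other without overlap, with cKO OPCs highest and control iOLs lowest. Cntn1 was 2.08-fold higher in cKO OPCs (log2 1.06 ± 0.19, adjusted p = 0.0178) and fell 3.40-fold in controls (log2 −1.77 ± 0.20, adjusted p = 0.000149) and 5.5-fold in cKO cells (log2 −2.46 ± 0.20, adjusted p = 2.26e-05). In iOLs the genotype difference was 0.37 ± 0.20 (adjusted p = 0.325). The summed level of 10 neuronal markers was 258 and 172 CPM in control OPCs and 335, 337 and 238 CPM in cKO OPCs, and its part in the OPC differences was not tested. The call in OPCs was lost without control OPC replicate 1 (adjusted p = 0.0757), without cKO OPC replicate 1 (0.0793) or 2 (0.0741), and with day 6 libraries alone (0.108).

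The receptor Notch1 (chromosome 2, 26457902 to 26503822) was the only 1 of the 10 genes that was called in none of the comparisons. It stood at 319 and 531 CPM in control OPCs, at 516, 453 and 523 CPM in cKO OPCs, at 476 and 460 CPM in control iOLs and at 666 and 563 CPM in cKO iOLs. The control OPC libraries were the farthest apart within a group, the day 7 library being the low one, and the cKO iOLs lay above the control iOLs and the cKO OPCs without overlap. The log2 differences ran from 0.14 ± 0.22 between the stages in controls (adjusted p = 0.64) to 0.39 ± 0.22 between the genotypes in iOLs (adjusted p = 0.352), and none of the 4 passed. In OPCs the difference was 0.23 ± 0.20 (adjusted p = 0.496). It was −0.095 without control OPC replicate 1 and 0.64 without control OPC replicate 2, and the latter passed (adjusted p = 0.0145).

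Mfng (chromosome 15, 78755882 to 78773516) encodes Manic fringe, a Golgi enzyme that adds sugar to the Notch receptor and so changes which ligands bind it well. It stood at 7.67 and 5.69 CPM in control OPCs and at 6.62, 6.30 and 5.94 CPM in cKO OPCs. In iOLs it stood at 0.284 and 0.444 CPM in controls, which is 5 and 8 counts, and at 2.02 and 1.48 CPM in cKO libraries, which is 38 and 28 counts. The OPC groups overlapped, while in iOLs both cKO libraries lay above both controls and below all OPC libraries. Mfng fell 18-fold in controls (log2 −4.17 ± 0.34, adjusted p = 2.26e-05) but 3.58-fold in cKO cells (log2 −1.84 ± 0.26, adjusted p = 0.000564). It was 4.73-fold higher in cKO than in control iOLs (log2 2.24 ± 0.37, adjusted p = 0.00598), and in OPCs the difference was −0.09 ± 0.23 (adjusted p = 0.832). From the summed counts of 66 in cKO and 13 in control iOLs, the ratio scaled for library size was 4.80 with an exact 95% interval of 2.62 to 9.48, which covers counting error only.

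The change of Mfng between the stages differed between the genotypes by 2.33 ± 0.44 on the log2 scale (adjusted p = 0.038), and it was the only 1 of the 10 genes for which this difference of differences passed, in a test that called 0.945% of all genes in the higher direction and 0.886% in the lower. At an unadjusted p under 0.05 in edgeR, 1 of the 10 was higher and 3 were lower, where 2475 of all 13549 genes passed in either direction. DESeq2 called 1 of the 10 lower, beside 3.39% of all genes. The call on Mfng was lost in 7 of 16 alternatives, namely with day 6 libraries alone (adjusted p = 0.0843), without any 1 of the 4 iOL libraries (0.0857 to 0.182) and without cKO OPC replicate 1 (0.107) or 2 (0.106), while its value stayed between 2.05 and 2.68. The genotype call in iOLs was lost without control iOL replicate 1 (log2 1.96, adjusted p = 0.0698). Beside it, the summed astrocyte markers stood at 6464 and 6645 CPM in control iOLs and at 9609 and 11532 CPM in cKO iOLs, and their part in the Mfng level was not tested. Most of that sum was Gfap, at 3778 and 3655 CPM in control iOLs and at 6115 and 7938 CPM in cKO iOLs. Of the 9 measured astrocyte markers, 0 were called higher and 0 lower there, beside 7.08% and 3.51% of all genes.

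**Figure D3:**
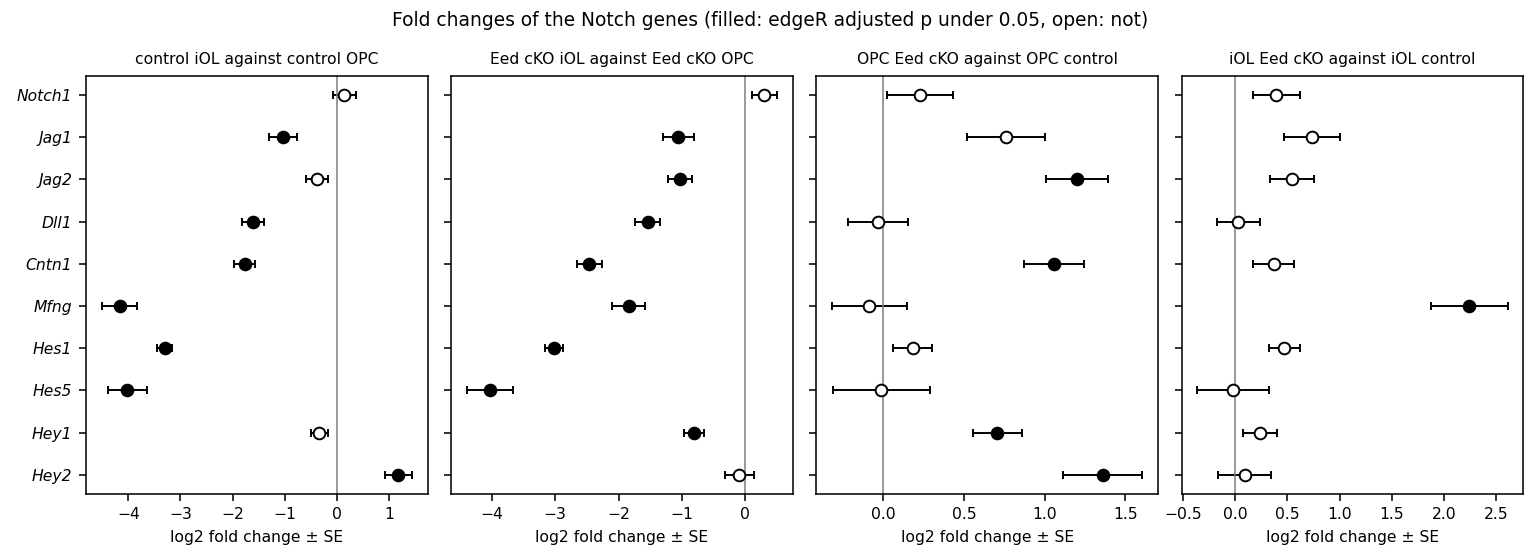
Log2 fold change of the 10 Notch genes in the 4 comparisons, from left to right the stage change in control and in Eed cKO cells and the genotype difference in each stage; points are edgeR estimates, bars are standard errors, and filled points passed the test. Jag2, Cntn1, Hey1 and Hey2 pass for the genotype in OPCs and Mfng in iOLs; each panel has its own axis.

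The 2 control OPC libraries came from pups of different ages, so the OPC comparison was also read within each age. With 1 control library at each age, these are values without a test. On the log2 CPM scale (prior count 2), the cKO libraries exceeded the control of the same age by 1.57 at day 7 and 0.86 at day 6 for Hey2, by 1.25 and 0.95 for Jag2, by 1.31 and 0.62 for Cntn1, by 1.05 and 0.27 for Jag1 and by 0.80 and 0.42 for Hey1. For these 5 genes and Hes1 (0.11 and 0.27) every cKO OPC library lay above every control OPC library. The same direction at both ages follows from that and adds no further support. How many of all genes have OPC groups without overlap was not counted, so the separation only describes these genes. The value was larger at day 7 in each of them but Hes1. Notch1 (0.60 and −0.02), Dll1 (0.08 and −0.31), Mfng (−0.25 and 0.06) and Hes5 (−0.23 and 0.07) changed sign. All iOL libraries came from day 6 pups, so the iOL comparison does not mix ages. When the iOL libraries were fitted without the OPC libraries, 5 of the 10 genes were called higher in cKO iOLs instead of 1: Mfng (adjusted p = 0.00991), Cntn1 (0.0119), Notch1 (0.0249), Jag2 (0.0356) and Hey1 (0.0417). That fit called 15.9% of all genes higher, against 7.08% with all libraries. When the OPC libraries were fitted without the iOL libraries, none of the 4 OPC calls held, with Hey2 (adjusted p = 0.0506) and Jag2 (0.0519) just above the threshold, Cntn1 at 0.113 and Hey1 at 0.153.

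**Figure D4:**
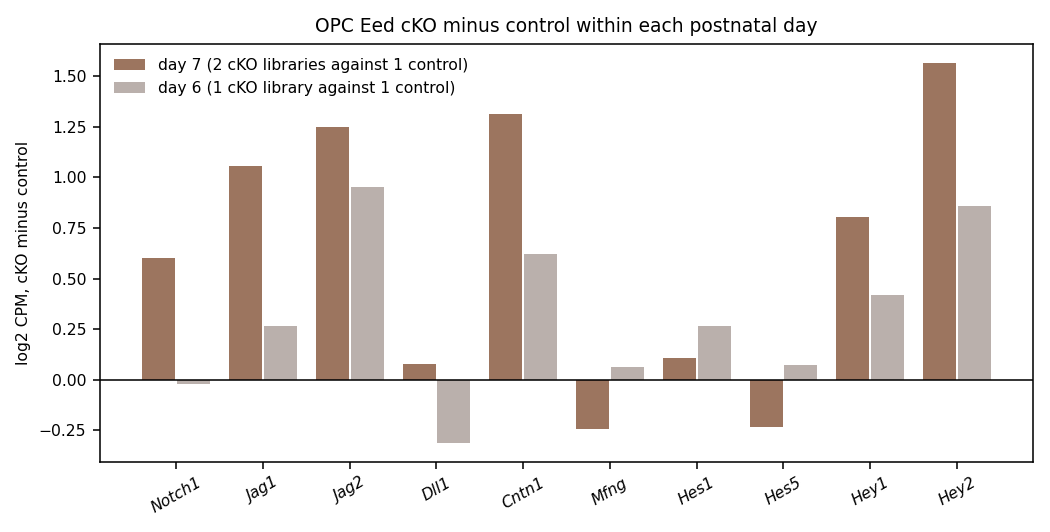
Difference in log2 CPM between Eed cKO and control OPCs for the 10 Notch genes, for libraries from day 7 pups and from day 6 pups; each bar is the mean of the cKO libraries of that age (2 at day 7, 1 at day 6) minus the 1 control library. Jag2, Cntn1, Hey1, Hey2, Jag1 and Hes1 lie above 0 at both ages, which follows from OPC groups that do not overlap for these genes. The share of all genes with such groups was not counted.

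Beyond the 10 genes, 71 of 81 further genes of the pathway, in 8 lists ordered by role, were in the table. In OPCs, 2 of the 71 were called, both higher in cKO cells, where 2.94% of all genes were higher, and in iOLs 12 were higher and 1 lower, where 7.08% and 3.51% of all genes were. Between the stages, 13 were called higher and 26 lower in controls, beside 21.0% and 25.3% of all genes, and 13 higher and 19 lower in cKO cells, beside 18.5% and 21.8%. The median log2 differences of the 71 were 0.14 and 0.18 for the genotype in OPCs and iOLs, and −0.28 and −0.12 for the stage change in controls and in cKO cells.

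In the ligand list, which had 11 of its 12 genes in the table, the 4 described above among them, 3 genes were called higher in cKO iOLs and 3 in cKO OPCs. Of all genes, 7.08% were called higher in cKO iOLs and 2.94% in cKO OPCs. Dlk1, a Delta-like protein without the usual receptor-binding domain, stood at 1.29 and 1.0 CPM in control OPCs and at 7.16, 6.84 and 6.61 CPM in cKO OPCs. Its level in iOLs was 6.59 and 6.44 CPM in controls and 54.0 and 77.8 CPM in cKO libraries. No groups compared overlapped, and Dlk1 was higher in cKO cells in both stages (log2 2.58 ± 0.24 in OPCs, adjusted p = 0.000469, and 3.34 ± 0.21 in iOLs, adjusted p = 0.000209). The call in OPCs was lost with day 6 libraries alone (adjusted p = 0.0962). Dll3, a Delta-like protein that acts inside the cell that makes it, fell from 90.3 and 62.5 CPM in control OPCs to 5.74 and 3.61 CPM in control iOLs (log2 −4.03 ± 0.30, adjusted p = 1.32e-05). In cKO iOLs it stood at 11.6 and 8.72 CPM, higher than in control iOLs by 1.12 ± 0.29 (adjusted p = 0.0395), a call lost without any 1 iOL library and without cKO OPC replicate 1 or 2 (adjusted p up to 0.246). Of the receptors, Notch3 (log2 −2.02 ± 0.61, adjusted p = 0.0226) and Notch4 (log2 −1.37 ± 0.30, adjusted p = 0.00521) fell in controls, the call on Notch3 being lost without control OPC replicate 2, without either control iOL library and with only the groups compared (adjusted p up to 0.254).

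Of the 11 target genes in the table, Hes1, Hes5, Hey1 and Hey2 among them, 8 fell and 1 rose between the stages in controls, and 7 fell and 1 rose in cKO cells. Of all genes, 25.3% were called lower and 21.0% higher in controls, and 21.8% and 18.5% in cKO cells. Nrarp, a target that feeds back on the Notch transcription complex, stood at 242 and 178 CPM in control OPCs and at 330, 290 and 189 CPM in cKO OPCs. It stood at 14.9 and 14.3 CPM in control iOLs and at 36.2 and 34.3 CPM in cKO iOLs, far below the OPC libraries in both genotypes. Nrarp fell by 3.85 ± 0.27 on the log2 scale in controls (adjusted p = 1.03e-05), and it was higher in cKO than in control iOLs by 1.27 ± 0.25 (adjusted p = 0.0136), a call lost when any 1 iOL library was left out (adjusted p up to 0.0981). Heyl, the remaining Hey family gene, fell in controls (log2 −3.22 ± 0.35, adjusted p = 0.000103) and in cKO cells (log2 −2.97 ± 0.30, adjusted p = 8.36e-05).

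The nuclear complex, with 17 genes in the table, was the list with more genes called higher than lower between the stages, 8 against 4 in controls and 4 against 2 in cKO cells. Of all genes, 21.0% were called higher and 25.3% lower in controls, and 18.5% and 21.8% in cKO cells. The counts describe the list only. Rbpj, the DNA-binding protein of the pathway, stood at 25 and 31.3 CPM in control OPCs and at 52.0 and 52.1 CPM in control iOLs (log2 0.89 ± 0.14, adjusted p = 0.000801). Among the coactivators, Maml1 rose (log2 0.76 ± 0.14, adjusted p = 0.00192) while Maml2 fell (log2 −1.16 ± 0.17, adjusted p = 0.000648). Of 15 ubiquitin and trafficking regulators, 4 were called higher in cKO iOLs, where 7.08% of all genes were. Among them were Numb, an inhibitor of Notch (log2 0.87 ± 0.13, adjusted p = 0.00325), and Neurl1b, a ubiquitin ligase for ligands (log2 1.34 ± 0.18, adjusted p = 0.00218). The call on Numb was lost without control iOL replicate 1 (adjusted p = 0.0529). The cleavage list, with 10 genes, held 1 such gene, the convertase Furin (log2 0.70 ± 0.15, adjusted p = 0.0176), and its call was lost without either control iOL library or cKO iOL replicate 2 (adjusted p up to 0.145).

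Among the 9 measured proneural and lineage factors, which Hes and Hey proteins are known to repress in part, Neurod1, a neuronal differentiation factor, was higher in cKO OPCs (log2 2.35 ± 0.31, adjusted p = 0.004, and 0.125 with day 6 libraries alone), and Olig2, the lineage factor of oligodendrocytes, was lower in cKO iOLs (log2 −0.67 ± 0.15, adjusted p = 0.0252). The Olig2 call was lost when any 1 iOL library was left out (adjusted p up to 0.201).

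**Figure D5:**
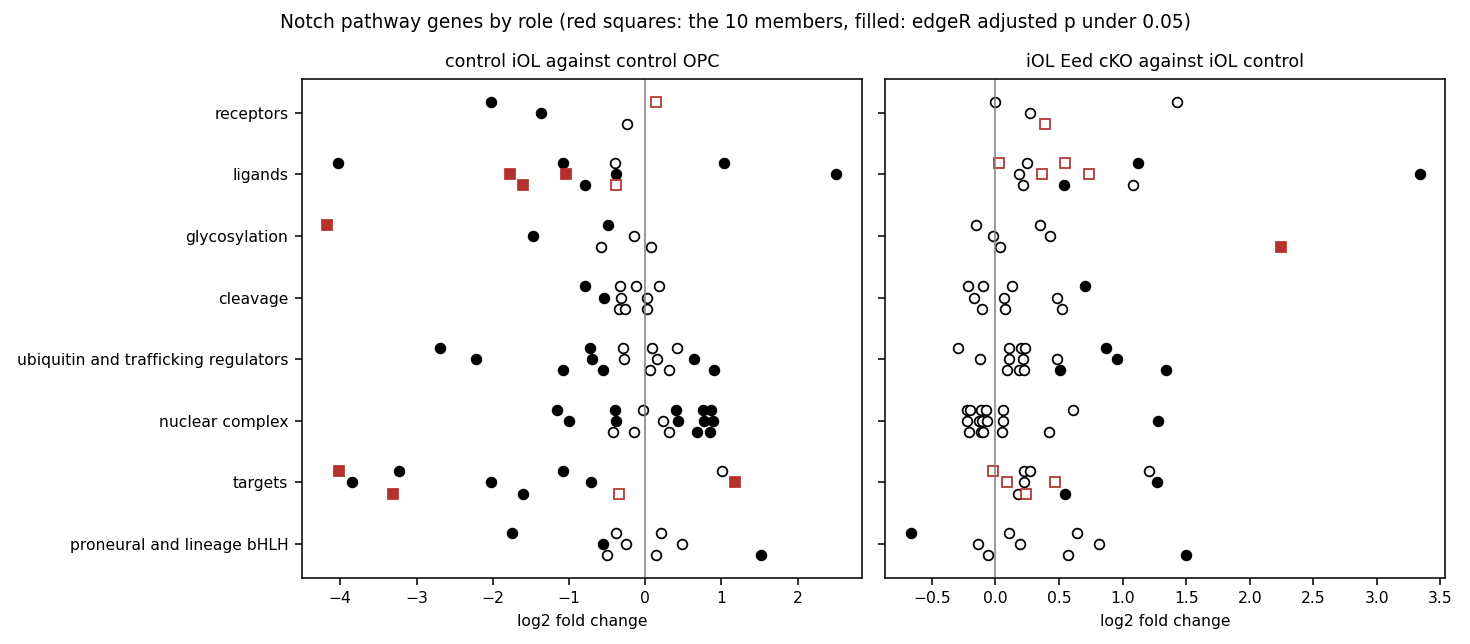
Log2 fold changes of the measured pathway genes by role list for control iOLs against control OPCs (left) and for cKO against control iOLs (right); each symbol is 1 gene, red squares are the 10 Notch genes and filled symbols passed the test. Notch3 and Dtx1 stand in 2 lists. The target list reaches from −4.02 (Hes5) to 1.18 (Hey2) between the stages.

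The genes whose profile over the 9 libraries was most like that of a member were ranked by the mean absolute difference of log2 CPM after centring each gene on its own mean. For Hey2 the nearest were Wnt11 (0.103), Stard13 (0.151) and Lrrtm2 (0.160) among 7998 genes, and its nearest fellow member, Hey1, differed by 0.515 and ranked 2046. For Jag2 the nearest were Epha7 (0.0970), Six4 (0.127) and Rapgef4 (0.130), with Hey1 at 0.206 and rank 28. For Hes5 the nearest of 1091 genes were Caln1 (0.236), Cdo1 (0.239) and Npas1 (0.288), with Hes1 at 0.459 and rank 36. For Notch1, whose profile was nearly flat, they were Bicral (0.0725), Nrip1 (0.0747) and Fam107b (0.0761) among 12608 genes. These 9 libraries share their scaling and 4 groups, so the values describe likeness only.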

How the data were processed

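Total RNA was sequenced from 9 mouse libraries in 4 groups, and the authors deposited raw counts per gene as 1 table. Per the submitters' processing notes, cutadapt 1.14, STAR 2.6.0 and featureCounts of Subread 1.6.2 were used with mm10. A second header line was left out; every gene listed had at least 1 count in each library and 10 or more in at least 4, so the filter removed none. Depth was 17417529 to 19680398 counts per library. Counts were fitted with edgeR 4.0.16 in R 4.3.3 (TMM, quasi-likelihood test, 4 group means on 9 libraries, two-sided, Benjamini-Hochberg over 13549 genes, called at an adjusted p under 0.05); DESeq2 1.42.0 was an alternative. A standard error is the log2 fold change divided by the square root of F. The procedure was tested on simulated data with the same spread for a gene in every group and no age difference. That does not cover the unequal spread between groups here. The 4 comparisons share libraries with each other, so their values are not independent. Of the symbols, 97.9% matched the RefSeq table.

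The genes and lists were chosen with earlier results of these data known. All 10 genes were named, list genes could be named if called (1 is not reported here), and likeness was computed for Notch1, Hes5, Hey2 and Jag2. Alternatives were another scaling, another filter and none, only the groups compared, postnatal day as a term, day 6 libraries alone, the replicate number as a block, and each library left out. Promoters are RefSeq sequences on GRCm38.p6, with entries for 7 of the 10 genes.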

Additional observations from a re-analysis of the deposited data

Results flagged for a closer look

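The log2 change of Mfng between OPCs and iOLs was higher in Eed cKO than in control cells by 2.33, and the test of this difference itself passed (edgeR quasi-likelihood test, adjusted p = 0.038). It rests on 5 and 8 counts in the control iOL libraries. No group had the 4 or more libraries needed to look for a library far from the others.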

How the results depend on the processing

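Over 50 member results and up to 17 alternatives each, 738 values kept direction and side of the threshold, 32 lost the call, 29 gained it and 41 changed sign. The causes were not tested. The 738 include the fit without a filter, which equals the reported fit because the filter removed no gene. Leaving out a library outside a comparison hardly moves its log2 value either, so the 738 are no measure of robustness. The falls of Hes1, Hes5, Dll1, Cntn1 and Mfng between the stages were called in every alternative in both genotypes, as was the rise of Hey2 in controls. With 2 or 3 libraries a group and 5 residual degrees of freedom, counts of calls moved widely.

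Called higher in cKO OPCs were 4 of the 10 genes, 0 with only the groups compared, 0 with day 6 libraries alone, and 1 to 5 when a library was left out. In cKO iOLs the count of 1 became 5, 2 with postnatal day as a term and 6 with day 6 libraries, and 0 to 2 when a library was left out. Between the stages, leaving out a library gave 1 to 2 higher and 5 to 7 lower in controls, and 0 to 1 higher and 7 to 8 lower in cKO cells. For the difference of differences, the 1 higher became 0 with day 6 libraries and 0 to 1 without a library, and the 0 lower became 2 with the replicate block, 1 with the day term, 1 with DESeq2 and 0 to 3 without a library.

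Over all genes, the 440 calls in OPCs became 190 with only the groups compared, 1941 with the replicate block, 1382 with the day term, 66 with day 6 libraries, 1006 with DESeq2 and 164 to 3935 without a library. The 1434 in iOLs became 3699, 2680 with the day term, 3728 with day 6 libraries and 349 to 2236 without a library. Leaving out a library gave 4057 to 7236 for the 6270 in the control stage comparison and 3080 to 6883 for the 5461 in cKO cells. The 248 for the difference of differences became 1049 with the block, 1202 with the day term, 416 with day 6 libraries, 823 with DESeq2 and 2 to 2156 without a library.

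Same-numbered libraries did not deviate together throughout (r = −0.35 and 0.31 in OPCs, 0.24 in iOLs). In a group of 2 libraries, the deviations from the group mean are mirror images of each other. These values therefore cannot decide whether the replicate numbers pair the samples.

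No value that changed sign had passed the test as reported. In OPCs, cKO against control, Notch1 was −0.021 with day 6 libraries and −0.095 to 0.64 without a library. Dll1 was 0.087 with the block and −0.15 to 0.092. Mfng was 0.063 with day 6 libraries and −0.29 to 0.14. Hes5 was 0.013 with RLE size factors and with DESeq2, 0.25 with the block, 0.074 with day 6 libraries and −0.43 to 0.58. In iOLs the ranges without a library were −0.30 to 0.29 for Dll1, −0.20 to 0.14 for Hes5 and −0.19 to 0.32 for Hey2. Between the stages, Notch1 in controls was −0.018 with the day term, −0.18 with day 6 libraries and −0.18 to 0.55 without a library, and Hey2 in cKO cells was 0.19, 0.39 and −0.37 to 0.14. For the difference of differences, Notch1 ranged from −0.25 to 0.49, Jag1 was 0.028 with the day term, 0.47 with day 6 libraries and −0.30 to 0.30, Dll1 was −0.076 with the block and −0.26 to 0.33, and Hes5 was 0.080 with the day term and −0.60 to 0.41.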
